A study of Mus musculus with 6 samples.

Results

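The enzymes described here are 10 mouse genes that make androgens or turn them, and related steroids, into other steroids: Cyp11a1, Cyp17a1, Cyp11b1, Cyp19a1, Hsd3b1, Hsd3b6, Hsd17b3, Srd5a1, Akr1c14 and Akr1c18. They were taken as a list by gene name, through the RefSeq accession that the array files give for each probe, and the rule uses no measured value. All 10 had a probe, among 23462 gene symbols that the accessions named, with 12 probes in all, 1 each for 8 genes and more than 1 for Hsd3b1 and Akr1c14. Total RNA came from TM3, an immortalised mouse testicular line widely used as a Leydig cell model, which the labels call male testicular somatic cells. Cells were given 10 µM 4-nitrophenol (PNP), a nitrated phenol found as a pesticide breakdown product, for 24 h, against 0 µM for 24 h, with the treatment labelled as none. Each group had 3 samples, each on its own 1-colour Agilent array. All are of 1 cell line. The labels do not tell whether replicates were grown apart, so a p-value here is set against the spread among 3 samples a group, and that spread could be technical. In such bulk RNA, fewer cells expressing a gene and less of its RNA per cell cannot be told apart.

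Leydig cells lie between the seminiferous tubules and make testosterone from cholesterol. Cyp11a1 cuts the cholesterol side chain inside mitochondria to give pregnenolone. The 3β-hydroxysteroid dehydrogenases, Cyp17a1 and Hsd17b3 then carry it to testosterone, which Srd5a1 reduces to dihydrotestosterone and Cyp19a1 turns into estrogen. Luteinizing hormone drives the route through its receptor Lhcgr, and the nuclear receptor Nr5a1 (SF-1) switches on many of its genes.

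In these TM3 arrays the enzymes that open and close testosterone synthesis were at background, while Srd5a1, Cyp11b1 and the brighter Akr1c14 probe gave clear signals. None of the enzymes that could be tested differed between PNP and control beyond the spread of the arrays. Of these 5 enzymes, 0 passed limma's test with Benjamini-Hochberg adjustment over 13138 genes, as did 0% of all genes, and 0 had an unadjusted p below 0.05, against 6.52% of all genes. For Cyp11b1 and Srd5a1 the values of even and odd slide columns did not overlap, as for 18.9% of all genes with 6 values. In the adjusted test for the column Cyp11b1 passed, a call lost when any PNP array was left out, and Srd5a1 did not pass. What sets this difference was not tested. Signals are given as scaled log2 signals, the log2 of the processed array signal minus the 75th percentile of that array, so that 0 is a bright probe and about -8 is the floor of the array. A probe counts as detected where the scanner software called it well above background, and levels of different probes cannot be set against each other.

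All arrays came from 1 slide. Spots well above background made up 61.6% ± 1.47 (SD, n = 3) on PNP arrays and 62.1% ± 0.240 (SD, n = 3) on control arrays (exact two-sided permutation p = 0.9). No spot was saturated. Spots marked as outliers made up 12.3% ± 0.814 (SD, n = 3) on PNP arrays and 7.75% ± 1.27 (SD, n = 3) on control arrays. The p of 0.1 for this difference (exact two-sided permutation test) is the smallest that 3 against 3 allows. PNP replicates 1 and 3 and control replicate 2 lay in even slide columns, and PNP replicate 2 and control replicates 1 and 3 in odd ones, so group and column overlap in part. All control arrays and PNP replicate 1 lay in slide row 1, and PNP replicates 2 and 3 alone in row 2, so group and row overlap as well. The share of all named genes above background on all 3 arrays was 62.8% with PNP and 63.8% in controls. Of the Leydig cell markers, 4 of 11 with a probe were above background on all 3 arrays in the PNP group and 4 in the control group. Ptgds counted in the PNP group alone and Cyp17a1 in the control group alone. The detected Leydig markers include Nr5a1, from -2.01 to -1.68 on PNP arrays and from -2.17 to -2.05 on control arrays. Lhcgr was at background on all 6. The Leydig list shares Cyp11a1, Hsd3b1, Hsd3b6, Cyp17a1 and Hsd17b3 with the enzymes described here, so its count is not independent of theirs. Star is also among the other steroid genes compared below. No probe of Insl3 was matched. Markers of peritubular myoid cells were above background on all arrays of a group for 7 of 8 genes in each group, those of macrophages and leukocytes for 7 of 10 in each, those of Sertoli cells for 4 of 10 in each, those of germ cells for 5 of 10 with PNP and 6 of 10 in controls, and those of endothelium for 1 of 6 with PNP and 0 of 6 in controls. None of the markers that could be tested passed for PNP.

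The first question was which steps of the pathway give a signal. On all 3 PNP arrays 3 of the 10 enzymes were above background, and on all 3 control arrays 5 were. Among all named genes these shares were 62.8% with PNP and 63.8% in controls. The 2 enzymes that differ in this count, Cyp17a1 and Akr1c18, lay close to the detection limit and could be tested only through their detection in controls. Per array, in replicate order, the count was 3, 5 and 4 with PNP, against 5, 5 and 6 in controls. PNP replicate 1 had the lowest share of spots above background, 59.9%. The 75th percentile of the processed signal was 4503, 5286 and 5034 on PNP arrays, against 5362, 5552 and 5798 on control arrays. Whether the dimmer PNP arrays set the count was not tested. The probe of Cyp11a1, the entry enzyme, was at background on all 6 arrays. Its scaled log2 signals were -7.32, -7.68 and -7.56 on PNP replicates 1 to 3, against -7.71, -6.96 and -7.85 on control replicates 1 to 3. The probe of Hsd17b3, which makes testosterone from androstenedione, was likewise at background on all 6 arrays, from -7.82 to -7.61 with PNP and from -7.91 to -7.82 in controls. Both lie near the floor where the dimmest signals of an array pile up, so no fold is given.

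The 3β-hydroxysteroid dehydrogenase step was dim as well. Hsd3b1, the isoform of mouse gonads and adrenals, had a first probe at -5.48, -6.10 and -5.53 with PNP, against -5.95, -5.80 and -5.27 in controls, and control replicate 3 was the only array where it was detected. Its second probe was detected on no array and stayed between -7.86 and -7.37. Hsd3b6, the isoform of adult mouse Leydig cells, was detected on no array, with signals from -6.58 to -5.82 with PNP and from -6.68 to -6.08 in controls. Genes of this family are near copies of each other in sequence, so which of them a weak signal comes from was not tested. Cyp19a1, the aromatase, was also detected on no array, at -7.09, -6.72 and -6.69 with PNP and at -6.74, -7.02 and -7.56 in controls. With no filter on detection, and each gene by its brightest probe, 0 of the 10 enzymes passed among 21695 genes. The lowest adjusted p of limma among them was 0.544, for Hsd17b3. Its mean scaled signal was -7.72 with PNP and -7.86 in controls. The processed signals before scaling ran the other way, from 23.1 to 23.5 with PNP and from 23.8 to 24.2 in controls. The direction of Hsd17b3 at this floor thus depends on the scaling.

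**Figure D1:**
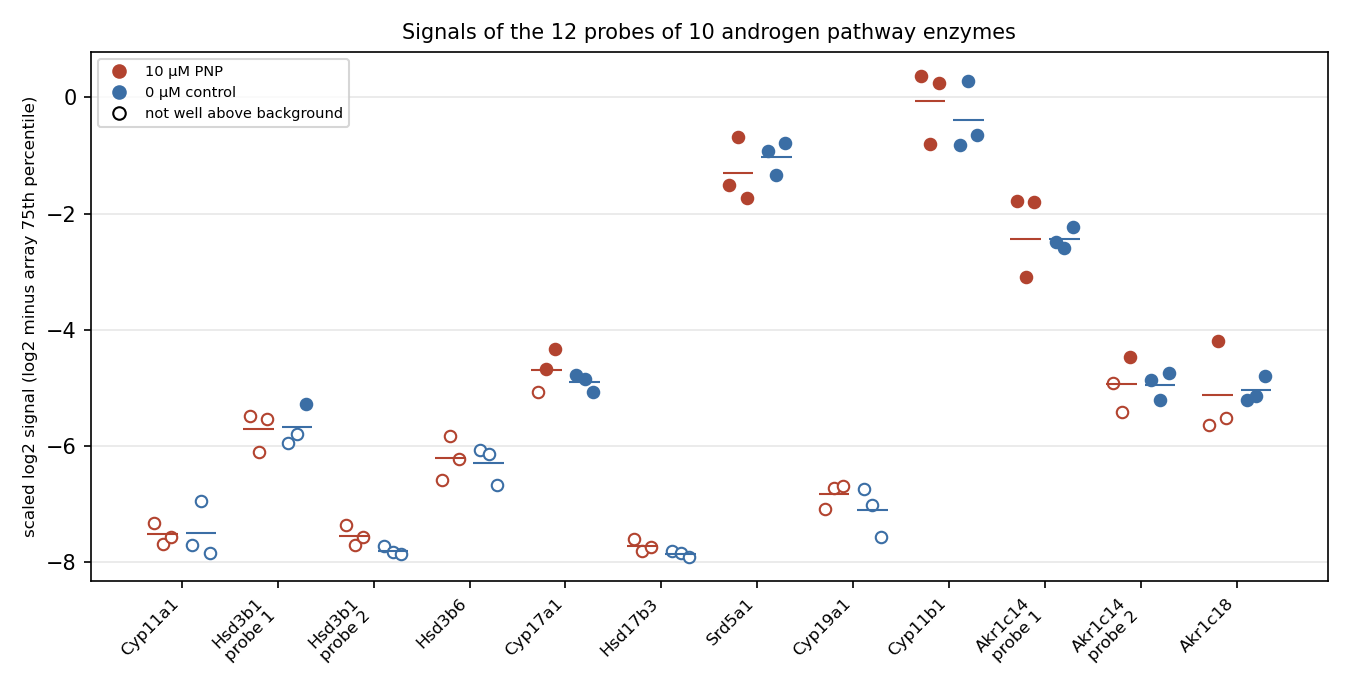
Scaled log2 signals (log2 minus the 75th percentile of the array) of the 12 probes on each array, with PNP left of control, a line at each group mean and open points where the probe was not well above background. Cyp11a1, Hsd17b3, Hsd3b6 and Cyp19a1 have open points alone, and Srd5a1, Cyp11b1 and the first Akr1c14 probe have filled points alone; the PNP mean of that Akr1c14 probe leaves out 1 outlier spot.

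Cyp17a1, the 17α-hydroxylase and 17,20-lyase, was the one enzyme of the classic route to testosterone that was detected on most arrays. Its signals were -5.06, -4.67 and -4.33 on PNP replicates 1 to 3, against -4.78, -4.84 and -5.07 on control replicates 1 to 3, and it was not well above background on PNP replicate 1. The groups overlapped, with the highest value on PNP replicate 3 and the lowest on control replicate 3. The log2 difference, PNP minus control, was 0.21 (95% interval -0.21 to 0.63, adjusted p = 0.923 with limma).

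Srd5a1 and Cyp11b1 were detected on all 6 arrays. Srd5a1, the type 1 5α-reductase, had -1.50, -0.68 and -1.73 on PNP replicates 1 to 3, against -0.93, -1.34 and -0.79 on control replicates 1 to 3. PNP replicate 2 was the highest of the 6 arrays and the other PNP arrays were the lowest. The difference was -0.28 (95% interval -0.89 to 0.33, adjusted p = 0.939 with limma). Cyp11b1, the 11β-hydroxylase that completes glucocorticoid synthesis in the adrenal cortex, had 0.37, -0.80 and 0.24 with PNP, against -0.83, 0.29 and -0.65 in controls. Its groups overlapped throughout, and the difference was 0.33 (95% interval -0.51 to 1.17, adjusted p = 0.946 with limma). Cyp11b2 is a close relative of Cyp11b1 in sequence, and whether it adds to the Cyp11b1 signal was not tested.

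The aldo-keto reductases inactivate steroids. Akr1c14, the mouse 3α-hydroxysteroid dehydrogenase that acts on dihydrotestosterone, had a first probe at -1.78, -3.09 and -1.80 with PNP, against -2.49, -2.59 and -2.23 in controls. The spot on PNP replicate 3 was marked as an outlier and left out of the fit, so its difference of 0.0040 (95% interval -0.81 to 0.81, adjusted p = 0.999 with limma) rests on 2 PNP arrays. With outlier spots kept the difference was 0.21 (adjusted p = 0.942 with limma), and fitted on the authors' deposited normalized values it was 0.17. PNP replicate 2 lay below every control and the other PNP arrays above every control. The second Akr1c14 probe was far dimmer, detected on 1 PNP array and 3 control arrays, and was also lowest on PNP replicate 2, with -4.92, -5.42 and -4.47, against -4.87, -5.21 and -4.75 in controls. Its difference was 0.0089 (95% interval -0.53 to 0.55, adjusted p = 0.996 over 27221 probes with limma).

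Akr1c18, the mouse 20α-hydroxysteroid dehydrogenase that inactivates progesterone, was detected on PNP replicate 2 alone of the PNP arrays and on all 3 control arrays. Signals were -5.64, -4.20 and -5.52 with PNP, against -5.20, -5.15 and -4.79 in controls. PNP replicate 2 stood above every control and the other PNP arrays below every control. The difference was -0.076 (95% interval -0.88 to 0.72, adjusted p = 0.982 with limma). Akr1c genes resemble each other closely, and sharing of signal between them was not tested.

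Across the 5 tested enzymes 3 differences were positive and 2 negative, against 63% positive over all genes, and their median was 0.0040, against 0.043 over all 13138 genes. None of the 4 enzymes with a value on all 6 arrays had PNP and control values that did not overlap, against 11.5% of the 11110 genes with 6 values. Of the 6 tested probes 0 passed, as did 0% of the 27221 probes. The precision was low for these genes. The 95% interval reached a median of 0.80 to either side of the difference over the 5 enzymes, against 0.28 over all genes. The spread within groups of Cyp11b1 (residual SD 0.62 on the log2 scale) was larger than that of 99.2% of the tested genes. For Akr1c18, Akr1c14 and Srd5a1 this share was 98.9%, 98.6% and 97.0%. For Cyp17a1 it was 88.5%, and its interval reached 0.42 to either side. In this fit with group alone, differences anywhere within the intervals given above thus remain possible for these enzymes.

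**Figure D2:**
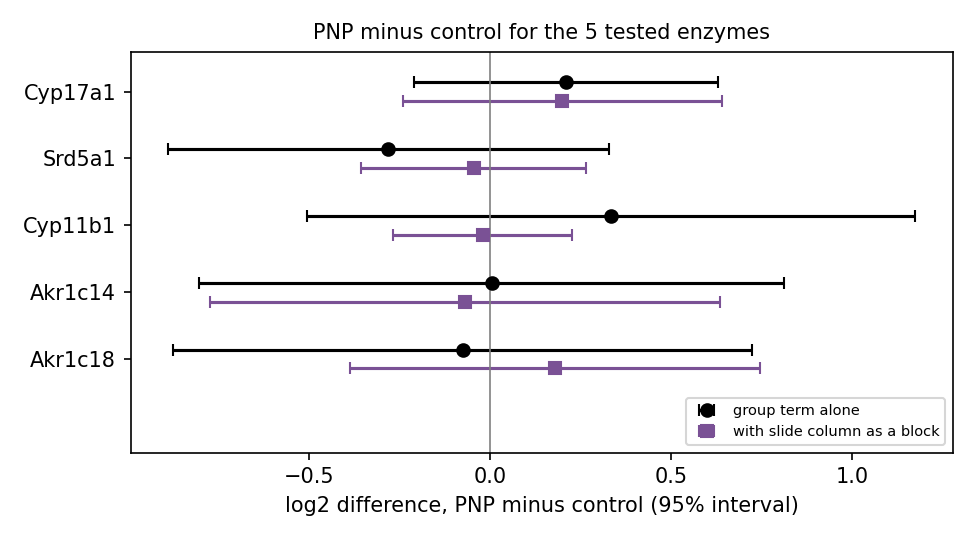
Log2 difference, PNP minus control, of the 5 tested enzymes with 95% intervals from limma, from the fit with group alone (black circles) and from the fit with slide column as a block (purple squares). All intervals cover 0, and with the block those of Srd5a1, Cyp11b1, Akr1c14 and Akr1c18 are narrower and that of Cyp17a1 is wider.

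Slide position was read next, because the arrays of a group differed so much for these enzymes. Cyp11b1 stood at 0.37 and 0.24 on the PNP arrays and at 0.29 on the control array of even columns. In odd columns it stood at -0.80 on the PNP array and at -0.83 and -0.65 on the control arrays. The processed signals before scaling were 5840, 5940 and 6779 in even columns and 3037, 3026 and 3686 in odd columns. Even and odd arrays did not overlap, whichever group they came from. In the limma fit with group and column, even minus odd was 1.07 (SE 0.11, adjusted p = 0.0108 over 13100 genes), and Cyp11b1 was 1 of 19 genes past the threshold (0.145%). The call was lost when any PNP replicate was left out, with adjusted p = 0.147 without PNP replicate 1, 0.0645 without PNP replicate 2 and 0.0660 without PNP replicate 3, while the value stayed between 1.03 and 1.11 whichever array was left out. It was also lost with no filter on detection (adjusted p = 0.266). The 19 genes became 0 without PNP replicate 1 or 3 and 314 without control replicate 2.

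Srd5a1 went the other way. It had -1.50 and -1.73 on the PNP arrays and -1.34 on the control array of even columns, and -0.68 on the PNP array and -0.93 and -0.79 on the control arrays of odd columns. These did not overlap either. Even minus odd was -0.71 (SE 0.14, adjusted p = 0.0923 with limma), which did not pass. It passed without control replicate 2 (adjusted p = 0.0311) and without control replicate 3 (adjusted p = 0.0388), and also with normexp background correction (adjusted p = 0.0454) and with trend and robust eBayes (adjusted p = 0.00987). Akr1c18 differed by -0.77 between even and odd columns (SE 0.25, adjusted p = 0.270 with limma), or by -1.39 without control replicate 2 (adjusted p = 0.0161) and -0.15 without PNP replicate 2. Akr1c14 differed by 0.43 (SE 0.30, adjusted p = 0.644), with 1.31 (adjusted p = 0.0288) without control replicate 2 and -0.22 without PNP replicate 2, and Cyp17a1 by 0.029 (SE 0.19, adjusted p = 0.976), all with limma.

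The column values of 2 of the 4 enzymes with 6 values did not overlap, against 18.9% of all genes with 6 values. At an unadjusted p below 0.05 for the column there were 3 of the 5 enzymes, against 12.4% of all genes. With so few enzymes these shares are a description. The column was read because of the large spread of these enzymes within groups. Genes of large spread can differ more along any split of the arrays, so these shares do not set the enzymes apart. Each column class holds 3 arrays, and whether the layout, the order of sample handling or the cultures set the column difference was not tested.

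**Figure D3:**
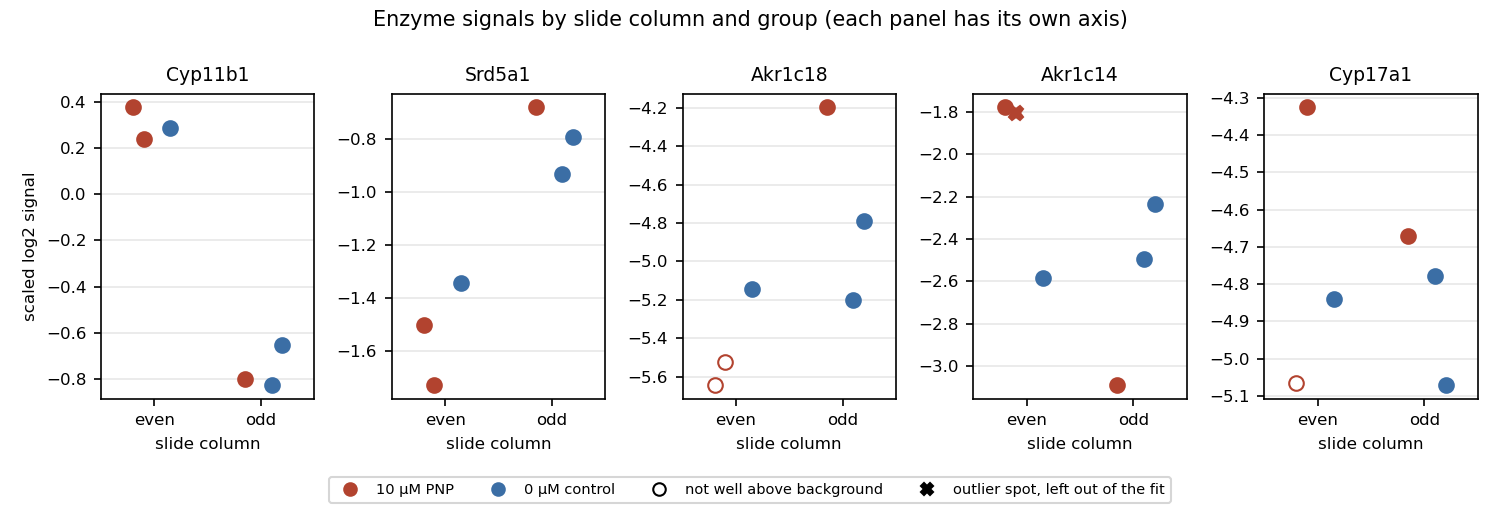
Scaled log2 signals of the 5 tested enzymes (brightest probe, each panel with its own vertical axis) in even and odd slide columns, PNP in red and control in blue, with open points not well above background and a cross for the outlier spot left out. For Cyp11b1 all 3 even arrays lie above all 3 odd arrays, and for Srd5a1 all 3 lie below.

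Within columns the PNP differences of the enzymes were as follows. Even columns held 2 PNP arrays and 1 control array, and odd columns 1 PNP array and 2 control arrays. Every within-column difference, here and below, thus rests on 1 array in a group. For Cyp11b1 PNP minus control was 0.019 in even columns and -0.060 in odd columns, and -0.021 with the column as a block (95% interval -0.27 to 0.23, adjusted p = 0.999 with limma). This interval comes from a column term that was read because of the spread of these same values. Whether column or PNP sets the Cyp11b1 values was thus not tested. For Srd5a1 it was -0.27 in even columns and 0.18 in odd columns, and -0.045 with the block (95% interval -0.36 to 0.27, adjusted p = 0.998). Cyp17a1 had 0.15 in even and 0.25 in odd columns, and 0.20 with the block (95% interval -0.24 to 0.64, adjusted p = 0.939). Akr1c18 had -0.44 in even columns and 0.80 in odd columns, and Akr1c14 had 0.81 in even columns and -0.73 in odd columns. With the outlier spot left out, the even-column value of Akr1c14 sets PNP replicate 1 alone against control replicate 2 alone. The residual SD was 0.45 with the column and 0.59 without it for Akr1c18, and 0.59 with it and 0.56 without it for Akr1c14. With the block their differences were 0.18 and -0.068, with adjusted p-values of 0.976 and 0.998. Over all genes 0.00761% passed with this block, a single gene, Gm27166, named because it is the only one.

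With slide row as a block, PNP replicate 1 alone is set against the 3 controls, since row 2 held no control. The differences were then 0.77 for Cyp11b1, 0.66 for Akr1c14, -0.60 for Akr1c18, -0.48 for Srd5a1 and -0.17 for Cyp17a1, with adjusted p-values from 0.546 to 0.711 in limma. These differ from the values without the block by over 1.5 times or in sign, and what row contributes was not tested.

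Promoters of the detected Srd5a1, Akr1c14 and Akr1c18 are shown beside that of Cyp11a1, which was at background on every array. Srd5a1 and Akr1c18 had negative column differences, and Akr1c14 and Akr1c18 are neighbours in 1 gene cluster. Each sequence is the 250 bases before the RefSeq start site, 5′ to 3′ on the strand of the gene, in build GRCm38.p6, with CpG dinucleotides (CG) in capitals.
Srd5a1 promoter: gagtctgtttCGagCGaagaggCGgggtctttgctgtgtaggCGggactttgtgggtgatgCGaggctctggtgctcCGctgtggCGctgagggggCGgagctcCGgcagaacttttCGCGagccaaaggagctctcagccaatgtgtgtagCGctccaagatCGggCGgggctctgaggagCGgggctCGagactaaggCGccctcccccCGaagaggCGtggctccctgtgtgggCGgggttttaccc
Akr1c14 promoter: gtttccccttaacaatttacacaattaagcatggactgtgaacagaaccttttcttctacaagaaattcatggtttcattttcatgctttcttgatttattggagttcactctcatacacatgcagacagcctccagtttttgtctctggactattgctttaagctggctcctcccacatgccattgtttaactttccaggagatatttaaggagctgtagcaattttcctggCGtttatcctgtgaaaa
Akr1c18 promoter: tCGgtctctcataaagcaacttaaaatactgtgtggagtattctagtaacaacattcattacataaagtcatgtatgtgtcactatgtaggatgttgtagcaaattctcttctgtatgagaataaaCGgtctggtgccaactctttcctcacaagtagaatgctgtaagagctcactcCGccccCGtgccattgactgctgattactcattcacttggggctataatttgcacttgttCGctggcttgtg
Cyp11a1 promoter: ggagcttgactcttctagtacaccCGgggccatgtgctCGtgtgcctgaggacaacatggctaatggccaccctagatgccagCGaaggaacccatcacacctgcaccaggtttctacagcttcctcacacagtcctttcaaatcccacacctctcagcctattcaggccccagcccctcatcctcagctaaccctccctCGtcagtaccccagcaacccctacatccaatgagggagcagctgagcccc
They lie at chr13:69611464-69611713 (minus strand), chr13:4059341-4059590 (plus strand), chr13:4150647-4150896 (minus strand) and chr9:57997774-57998023 (plus strand, the first of 2 windows listed for Cyp11a1). The Srd5a1 window held 20 CpGs, more than 82.1% of the 32851 promoter windows in the RefSeq table, whose median was 6. Akr1c14 held 1, Akr1c18 held 5 and Cyp11a1 held 4. Windows were listed for 8 of the 10 enzymes, 11 windows in all. The motif AAGGTCA, a short sequence that Nr5a1 binds, was searched on both strands and matched in 0 of these 11 windows, against 4.08% of all windows. No match says only that these letters are not in these windows.

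The last comparison set the enzymes beside 41 other genes of steroid synthesis and conversion, of which 39 had a probe and 25 could be tested. None passed limma's test (0 of 25, against 0% of all genes) and 1 had an unadjusted p below 0.05, against 6.52% of all genes. There were 15 positive and 10 negative differences, against 63% positive over all genes. Their median was 0.028, against 0.043 over all genes. Electron donors of the cytochromes P450 are among them. Fdx1, the ferredoxin of mitochondrial P450 enzymes, had 1.99 ± 0.16 with PNP and 1.99 ± 0.11 in controls (SD, n = 3 each), and the 95% interval of the limma difference was -0.26 to 0.27. Fdxr, its reductase, had 2.02 ± 0.16 with PNP and 1.99 ± 0.05 in controls (SD, n = 3 each). Por differed by 0.18, Cyb5b by 0.19 and Cyb5a by 0.035, PNP minus control (adjusted p = 0.916, 0.900 and 0.981 with limma). With outlier spots left out, Cyb5b rests on 2 arrays a group and Cyb5a on 2 control arrays. For Por even and odd columns did not overlap, as for 18.9% of all genes with 6 values, and differed by 0.32 (adjusted p = 0.303 with limma).

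Among these genes the smallest p-values on the positive side were those of Hsd17b14, a 17β-hydroxysteroid dehydrogenase that oxidises estradiol (human enzyme), and of Cyp21a1, the 21-hydroxylase of the adrenal cortex. Hsd17b14 had -2.69, -2.53 and -2.74 on PNP replicates 1 to 3, against -2.98, -3.06 and -3.01 on control replicates 1 to 3. The groups did not overlap, and the difference was 0.36 (SE 0.10, adjusted p = 0.740 with limma), with 0.35 in even and 0.46 in odd columns. Cyp21a1 had -2.11, -1.99 and -2.17 with PNP, against -2.18, -2.60 and -2.34 in controls, a difference of 0.28 (SE 0.13, adjusted p = 0.766 with limma). Its groups lay apart by a narrow gap. Of the 21 genes of the list with 6 values, 3 had groups that did not overlap, against 11.5% of all such genes.

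On the negative side stood Star, the carrier that moves cholesterol into mitochondria, and Hsd17b1, which makes estradiol from estrone. Star had -4.36, -3.77 and -4.27 on PNP replicates 1 to 3, against -3.81, -3.84 and -3.77 on control replicates 1 to 3. The even-column PNP arrays were low and the odd-column PNP array was level with the controls, so PNP minus control was -0.48 within even columns and 0.021 within odd columns. The limma difference was -0.33 (SE 0.15, adjusted p = 0.791). Hsd17b1 had -5.25, -5.34 and -5.41 with PNP, where it was detected on 1 array, against -4.80, -4.88 and -5.36 in controls, where it was detected on 3. Its difference was -0.32 (SE 0.15, adjusted p = 0.795 with limma). Hsd17b1 was tested only through its detection in controls, the group where it was higher, so the filter favours a lower value with PNP. With normexp background correction the difference was -0.052. Control replicate 3 lay among the PNP values.

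**Figure D4:**
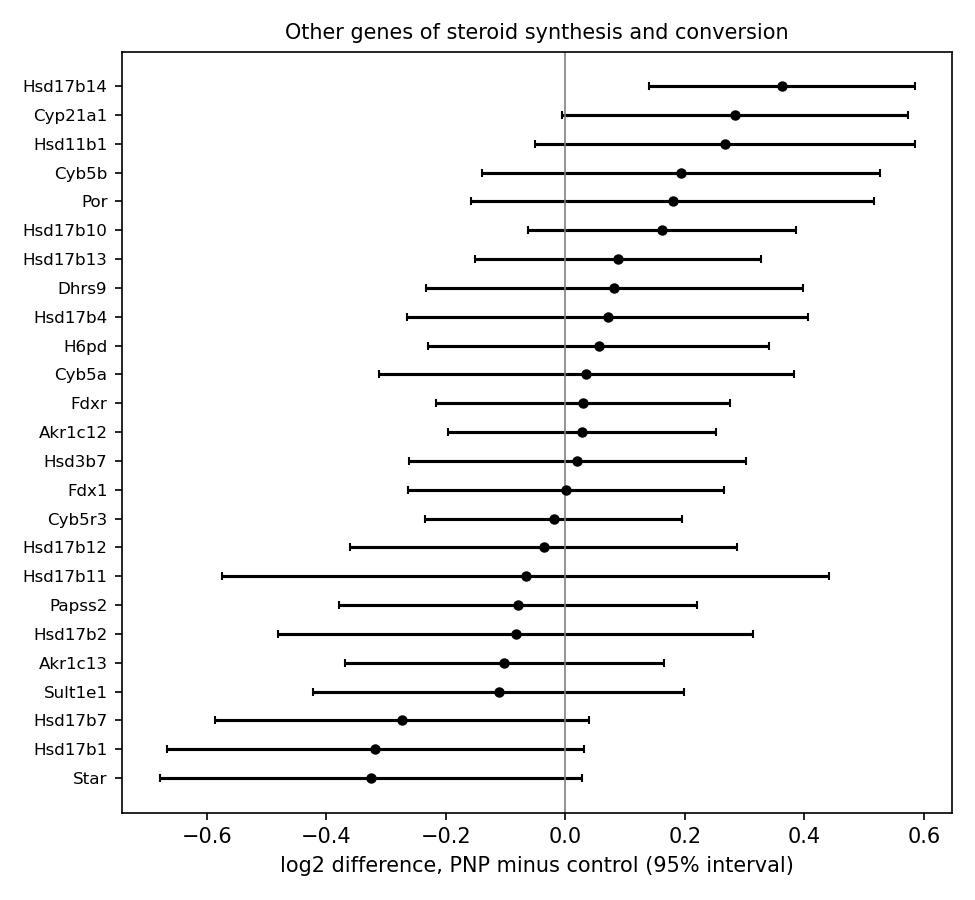
Log2 difference, PNP minus control, with 95% intervals from limma for the 25 tested genes of steroid synthesis and conversion outside the 10 enzymes. The interval of Hsd17b14 lies above 0 before adjustment and the other 24 cover 0.

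Column differences were also read in these genes. The median absolute difference, even against odd, was 0.71 over the 5 enzymes, against 0.13 over the 25 genes and 0.11 over all genes. The 5 enzymes were read by column because of their large spread, so this contrast does not set them apart. For the column 0 of the 25 passed the adjusted test, against 0.145% of all genes, and 2 had an unadjusted p below 0.05, against 12.4%.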

How the data were processed

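Scanner output deposited for each array holds intensity values of the spots. Version 11.5.1.1 of Agilent Feature Extraction is named per the file headers and version 10.7 per the submitters' processing notes. The processed signal follows a background-subtracted signal, and fits for detrending within the array are listed, per the file headers. The value table of the authors, on a log2 scale, served as an alternative. Each of its columns had a median of 8.27 and correlated with its own array at 0.9996 or more. How it was normalized and centred is unknown here, and it runs in the same direction as the scanner signal. The labels name the dye Cy3 and the files hold red-channel columns, and which of these applies is unknown.

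The log2 processed signal minus the 75th percentile of each array was used. Outlier spots were left out. A probe was tested if well above background on all 3 arrays of a group with at least 2 values per group, and a gene by its brightest tested probe. Of 56605 probes, 33767 were named through unversioned RefSeq accessions. Genes were tested with lmFit and eBayes (limma 3.58.1, R 4.3.3), two-sided, with Benjamini-Hochberg adjustment at 0.05. The fit was also run on simulated data with independent noise of the spread left after group and column. Those data lack the column spread, so the run checked only that added differences are recovered on average, not what can be detected here. Precision is limited by the number of arrays. Slide position was read per the file headers. All 10 enzymes are named, and of the other list the 2 of smallest p in each direction and Star. Fdx1, Fdxr, Por, Cyb5a, Cyb5b and Gm27166 were named after their values were seen. The enzymes and lists were chosen with earlier results of these data known. The normexp alternative used the median spot signal, since the files hold no mean signal.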

Additional observations from a re-analysis of the deposited data

How the results depend on the processing

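Over 19 alternatives, 0 of the enzymes and 0 of the other steroid genes passed, and over 18 alternatives 0 of the enzyme probes did. All genes gave 0 calls, except 1 with slide column as a block and 1 with trend and robust eBayes (Gm27166 in both), and from 0 to 1 when 1 array was left out. The PNP difference of Akr1c14 turned negative when arrays were scaled on detected probes (-0.017), on their median (-0.047) or by quantiles (-0.042), with the mean of its probes (-0.11), with the column block (-0.068) and within odd columns (-0.73). For Akr1c18 it turned positive with normexp (0.046), with the column block (0.18) and within odd columns (0.80). It also turned for Cyp11b1 with the column block (-0.021) and within odd columns (-0.060), for Cyp17a1 with slide row as a block (-0.17), and within odd columns for Srd5a1 (0.18) and Star (0.021). When 1 array was left out, the PNP difference ran from -0.65 to 0.66 for Akr1c14, -0.54 to 0.19 for Akr1c18, 0.029 to 0.40 for Cyp17a1, -0.59 to -0.069 for Srd5a1, 0.12 to 0.70 for Cyp11b1, -0.51 to -0.21 for Star, -0.49 to -0.21 for Hsd17b1 and 0.17 to 0.38 for Cyp21a1, with no call. Hsd17b1 was -0.052 with normexp and Star -0.55 with the row block. The column difference ran from -0.22 to 1.31 for Akr1c14 and from -0.12 to 0.20 for Cyp17a1, which was -0.021 with normexp. The cause of these turns was not tested. Within-column values, which rest on 1 array in a group, and the column difference under other settings were added after seeing the data.

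The replicate numbers are not said to pair samples. Deviations from the group mean correlated across genes at -0.31, -0.22 and -0.03 for same-numbered pairs 1, 2 and 3. The value was 0.24 for PNP replicate 1 with control replicate 2 and 0.27 for PNP replicate 2 with control replicate 1. The remaining pairs lay between -0.02 and 0.04. Deviations within a group sum to 0, which ties these values to each other, so they cannot decide on pairing. A replicate block gave 0 calls among all genes and 0 among the enzymes. The genes past the threshold for slide column were 19 in the main setting, 8 after quantile normalization, 9 in the authors' values, 41 with detection required on all 6 arrays, 48 with median scaling, 57 with normexp, 181 with trend and robust eBayes and 0 with no filter on detection. The number of arrays and signals near background for Cyp17a1, Akr1c18 and the dim enzymes limit what can be detected.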
